A study of Mus musculus with 9 samples.

Results

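The genes described here serve the folding of secreted and membrane proteins in the endoplasmic reticulum (ER) and the unfolded protein response, the programme that adjusts this folding capacity. They were chosen as 35 named genes by symbol, of 41457 genes in the deposited expression table, and all 35 symbols were found. Of these, 34 passed the filter on low values that left 11704 genes for testing. The exception was Derl3, which was listed at 0 in 4 of the 9 libraries and at 0.202 TPM at most.

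PancOVA cells, a tumour cell line of the mouse, were sorted for RNA sequencing after they had shared matrigel droplets with mouse pancreatic stellate cells for 48 h. All stellate cells were of the mPSC line carrying CD90.1 and had first been made quiescent for 48 h. In the qPSC group they served as the unprimed control. In the myCAF group they had been primed for 48 h with TGF-β1 at 2 ng/ml, a growth factor that drives stellate cells towards myofibroblasts. In the iCAF group they had been primed for 48 h with conditioned medium, and the labels call the resulting cells Tc17-iCAF. Each group had 3 libraries from 1 tumour line, and the labels do not say whether they came from separate cultures, so the p-values reflect how far these libraries vary among themselves, and that variation could be technical. Sorting took the cells positive for a dye with which the tumour cells had been labelled. Levels were deposited as TPM (transcripts per 1000000 transcripts, a level corrected for gene length and for the library total).

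Proteins that enter the ER are held by the chaperone BiP (Hspa5) and its helpers, receive disulfide bonds from protein disulfide isomerases, and, when glycosylated, are retained by the lectins calreticulin (Calr) and calnexin (Canx) until folded. Proteins that do not fold are returned to the cytosol and degraded. When unfolded protein accumulates, the sensors IRE1α (Ern1), ATF6 (Atf6) and PERK (Eif2ak3) are released or activated. IRE1α splices Xbp1 mRNA, ATF6 is cut to give a transcription factor, and PERK slows translation and favours ATF4. XBP1 and cleaved ATF6 bind promoter elements of many of the chaperone and degradation genes listed here. The activity of the sensors is set by protein changes and by splicing, neither of which a table of gene levels measures.

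1 of the 9 libraries, iCAF replicate 3, stood apart from the rest. Genes of ribosomal proteins took 20.7% of its TPM and 13.9% to 14.8% in the other 8, and the middle value of log2(TPM + 1) among tested genes was 3.96 in it where the other 8 lay at 4.35 to 4.47. Steps between low TPM values gave 38870594 to 45317253 reads per library, so depth differed little. The keratin gene Krt8 lay at 744 to 830 TPM in all 9 libraries, while the epithelial adhesion genes Epcam and Cdh1 were at or near 0 throughout (at most 0.0275 TPM). Krt19, another keratin gene, was less even, at 42.0 ± 4.38 TPM in the myCAF and 15.8 ± 4.63 TPM in the qPSC libraries (SD, n = 3). Of fibroblast genes, Col1a1 lay at 28.8 to 158 TPM and Thy1, which encodes CD90, at 2.05 to 9.04 TPM, but Col1a2, Lum and Fap did not exceed 0.279 TPM. Results below that touch iCAF replicate 3 are given with and without it.

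Transcripts of the main chaperones were abundant in every library, and those of the sensors lay lower. The 35 members together took 0.954% to 0.996% of all TPM in qPSC, 1.107% to 1.115% in myCAF and 0.928% to 1.08% in iCAF libraries. The lowest iCAF value belonged to iCAF replicate 3. The 5 most abundant members, Calr, Hspa5, P4hb, Hsp90b1 and Pdia3, supplied 57.4% to 59.3% of that sum in each library. Per length, the sensor transcripts lay far lower, with group means of 10.2 to 14.3 TPM for Eif2ak3, 18.6 to 29.0 TPM for Ern1 and 43.0 to 55.3 TPM for Atf6. Xbp1, the target of IRE1α, lay at 63.9 to 71.2 TPM. In bulk samples such as these, fewer cells that express a gene and less RNA per cell cannot be told apart.

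**Figure D1:**
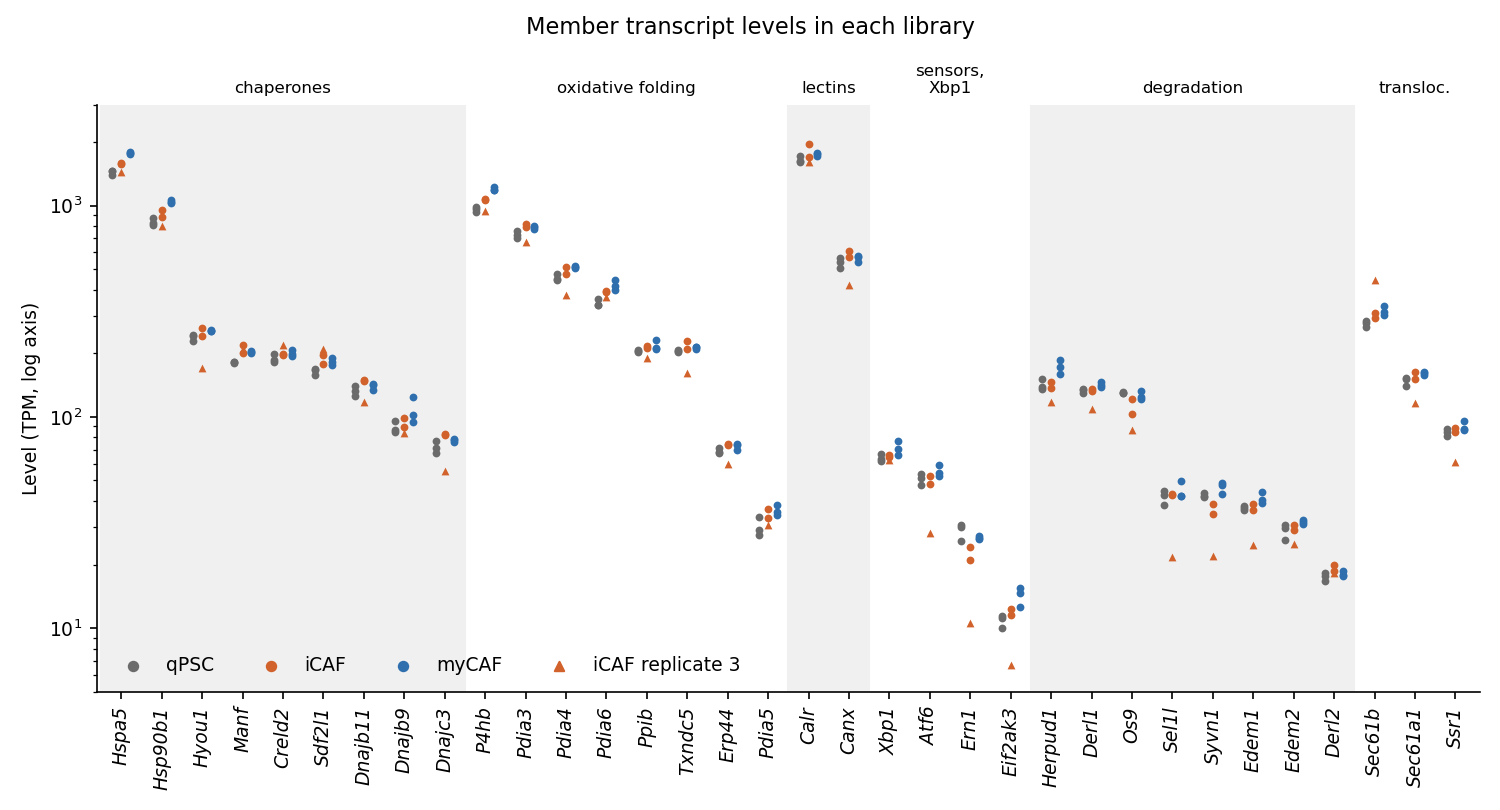
Level of each of the 34 tested members in each of the 9 libraries (TPM, log axis), ordered by role and within a role by mean level. Grey points are qPSC, orange iCAF and blue myCAF libraries, and the orange triangle is iCAF replicate 3, which lay below all other libraries for 24 members and above them for 3.

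Some of the members' promoters carry an element through which the response is known to act, and the windows of the 4 genes on which the comparison of myCAF with qPSC turns are printed first. Each runs from 250 bases before to 50 bases after the RefSeq transcript start on GRCm38.p6, 5′ to 3′ on the strand of the gene, and capitals mark an ER stress response element (ERSE) on either strand. An ERSE was searched for as CCAAT, 9 bases of any kind and CCACG. The windows are chr2:34771840-34772139 on the plus strand for Hspa5, chr10:86705395-86705694 on the minus strand for Hsp90b1, chr12:17266339-17266638 on the plus strand for Pdia6 and chr11:120573204-120573503 on the minus strand for P4hb.
Hspa5: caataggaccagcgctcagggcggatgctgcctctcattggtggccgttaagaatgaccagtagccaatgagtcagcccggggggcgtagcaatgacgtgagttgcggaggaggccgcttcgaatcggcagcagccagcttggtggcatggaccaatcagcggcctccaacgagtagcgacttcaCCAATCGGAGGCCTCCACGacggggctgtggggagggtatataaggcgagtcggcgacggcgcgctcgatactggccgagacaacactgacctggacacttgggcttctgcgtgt
Hsp90b1: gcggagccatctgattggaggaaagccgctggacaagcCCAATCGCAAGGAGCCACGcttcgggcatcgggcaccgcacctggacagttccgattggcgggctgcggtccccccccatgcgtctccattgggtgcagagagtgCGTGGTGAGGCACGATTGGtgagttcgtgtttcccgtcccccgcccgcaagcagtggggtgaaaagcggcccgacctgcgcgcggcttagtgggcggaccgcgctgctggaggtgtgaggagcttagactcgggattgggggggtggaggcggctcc
Pdia6: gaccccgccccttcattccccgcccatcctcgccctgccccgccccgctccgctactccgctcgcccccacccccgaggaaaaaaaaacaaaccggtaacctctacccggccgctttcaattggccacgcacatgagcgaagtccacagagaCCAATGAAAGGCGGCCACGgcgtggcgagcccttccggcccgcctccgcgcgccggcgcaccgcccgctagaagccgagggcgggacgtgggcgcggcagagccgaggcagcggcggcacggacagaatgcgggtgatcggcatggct
P4hb: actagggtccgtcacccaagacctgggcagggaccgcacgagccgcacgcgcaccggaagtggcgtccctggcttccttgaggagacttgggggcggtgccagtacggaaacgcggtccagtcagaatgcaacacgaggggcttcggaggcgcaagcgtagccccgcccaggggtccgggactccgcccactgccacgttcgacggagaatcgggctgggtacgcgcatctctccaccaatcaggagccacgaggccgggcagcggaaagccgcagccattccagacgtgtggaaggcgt

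Hspa5 held its element at -65 to -47 from the start, Pdia6 at -98 to -80, and Hsp90b1 held 2, at -212 to -194 and, on the opposite strand, at -107 to -89. The P4hb window held no ERSE by this spelling. Windows were found for 30 of the 35 members, and 9 of the 30 had an ERSE, where 0.119% of all 32851 mouse windows and 0.131% of those of tested genes had one. A second form, ERSE-II (ATTGG, 1 base and CCACG), was in 2 members, Dnajb11 and Herpud1, and in 0.0365% of all windows and 0.0783% of those of tested genes. The remaining matches are shown here because the fixed ends, in capitals, are shared while the spacer, in lower case, differs in each gene. All are read in the direction of the element.
Calr: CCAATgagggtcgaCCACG
Canx: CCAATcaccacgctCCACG
Creld2: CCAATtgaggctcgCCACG
Derl3: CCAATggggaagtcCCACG
Dnajc3: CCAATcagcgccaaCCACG
Syvn1: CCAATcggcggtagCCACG
Dnajb11: ATTGGcCCACG
Herpud1: ATTGGgCCACG

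The other spellings were searched on both strands too. TGACGTGG, the core of an element that XBP1 binds, was in the window of Txndc5 alone among the members and in 0.676% of all windows (0.827% of those of tested genes). The cyclic AMP response element TGACGTCA was in 0 member windows and in 1.79% of all windows (3.06% of those of tested genes). The 5-base ends of the ERSE, counted wherever they stood and so including those inside an ERSE, were common, with CCAAT in 23 of the 30 members and CCACG in 26 of the 30. CCAAT was in 37.4% of all windows and 38.5% of those of tested genes, and CCACG in 32.8% and 47.5%. A match describes these letters in these windows and shows no binding.

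**Figure D2:**
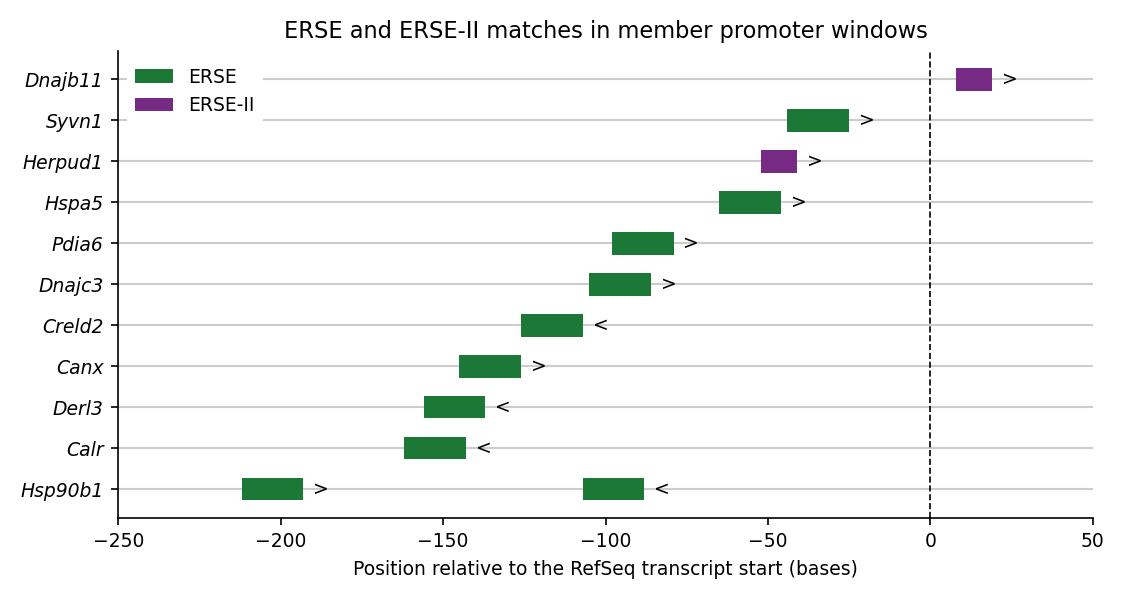
Position of ERSE (green) and ERSE-II (purple) matches in the windows of the 11 members that held one, in bases from the RefSeq transcript start (dashed line); arrowheads give the direction of the element relative to the gene. Of the 12 matches, 11 lie before the start, between -212 and -26, and that of Dnajb11 lies at 8 to 18 after it.

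The comparison of myCAF with qPSC asked whether tumour cells beside TGF-β1-primed stellate cells differed from those beside quiescent ones. Member transcripts were mostly higher after myCAF co-culture by a small amount. Of the 34 tested members 32 had a positive log2 fold change, with a median of 0.12, where 52.0% of all tested genes were positive and their median was 0.0058. The same 32 of 34 and 0.12 were found with each library centred on its median. In 19 of 34 members all 3 myCAF libraries lay above all 3 qPSC libraries, and in 0 all lay below. Over all tested genes the same held for 11.3% in the upward and 12.5% in the downward direction. With all 9 libraries in the fit, 0 members passed the test, as did 0% of all genes (limma), while 8 members had an unadjusted p under 0.05 and a positive fold change, as did 2.67% of all genes, and 0 had one with a negative fold change. With limma-voom on the implied reads the count of members called was also 0.

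Hspa5, which encodes BiP, the main chaperone of the ER lumen and a brake on the sensors, lay at 1781, 1800.5 and 1753 TPM in the myCAF libraries. It lay at 1454, 1452 and 1387.5 TPM in the qPSC libraries. The groups did not overlap, and the myCAF libraries were the highest 3 of all 9. The log2 fold change was 0.31 ± 0.064 (SE), or 1.24-fold, with a limma adjusted p of 0.193 with all 9 libraries and 0.0118 without iCAF replicate 3.

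Hsp90b1, which encodes the ER chaperone GRP94, lay at 1067, 1024 and 1041 TPM after myCAF and at 830.05, 874 and 813 TPM after qPSC co-culture. P4hb, which encodes protein disulfide isomerase itself and is also a subunit of collagen prolyl hydroxylase, lay at 1182, 1179 and 1228 TPM against 986, 933 and 965 TPM. Pdia6, another disulfide isomerase, lay at 446, 417 and 397 TPM against 339.8, 359 and 339 TPM. In all 3 genes each myCAF library lay above each qPSC library. The log2 fold changes were 0.32 ± 0.075 for Hsp90b1, 0.32 ± 0.069 for P4hb and 0.28 ± 0.068 for Pdia6 (SE), or 1.245-, 1.24- and 1.21-fold.

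These 4 members passed the test once iCAF replicate 3 was left out, although neither group compared holds that library. The fold changes are the same numbers in both fits and only the pooled estimate of the spread differs, so that the SE of Hspa5 went from 0.064 to 0.037. Without that library the limma adjusted p was 0.0119 for P4hb, 0.0163 for Hsp90b1 and 0.0282 for Pdia6, and 4 of 34 members were called higher where 1.04% of all genes were. With only the 6 libraries compared in the fit, 4 members were called higher, all 4 shared with that count, where 1.36% of all genes were. Their limma adjusted p lay between 0.0146 for Hspa5 and 0.0336 for Pdia6.

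Among the sensors, Eif2ak3 (PERK) lay at 14.6, 12.7 and 15.5 TPM after myCAF and 11.5, 11.2 and 9.97 TPM after qPSC co-culture. The groups did not overlap, and the log2 fold change of 0.36 ± 0.19 (SE) was larger than that of Hspa5 but less precise (limma adjusted p = 0.949, and 0.0576 without iCAF replicate 3). Atf6 lay at 52.3, 54.3 and 59.4 against 53.6, 51.4 and 47.4 TPM and Ern1 at 27.4, 26.5 and 26.7 against 30.2, 30.8 and 25.98 TPM, so both overlapped. Xbp1 overlapped too, at 66.3, 70.7 and 76.7 against 63.1, 61.7 and 66.8 TPM. The log2 fold changes were 0.12 ± 0.20 for Atf6, -0.10 ± 0.24 for Ern1 and 0.15 ± 0.079 for Xbp1 (limma adjusted p from 0.918 to 1, and from 0.208 to 0.543 without iCAF replicate 3). The 95% interval of the Xbp1 difference, from -0.024 to 0.33, holds the Hspa5 value of 0.31, while the intervals without iCAF replicate 3, from 0.021 to 0.285, and in the 6 libraries compared, from 0.012 to 0.29, end below it. The Hspa5 intervals in those 2 fits, from 0.23 to 0.40 and from 0.22 to 0.40, overlapped those of Xbp1. The difference between the 2 genes was not tested.

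Herpud1, which encodes a membrane protein of the degradation complex, lay at 171, 160 and 186 TPM after myCAF and at 138, 151 and 135 TPM after qPSC co-culture. The groups did not overlap, with a log2 fold change of 0.28 ± 0.099 (SE) and a limma adjusted p of 0.528, or 0.0538 without iCAF replicate 3. Of the 8 tested degradation members 7 were positive, with a median log2 fold change of 0.11. Syvn1, the ubiquitin ligase HRD1 at the centre of that complex, lay at 48.8, 43.0 and 47.4 against 43.7, 41.7 and 42.0 TPM and overlapped. Os9, a lectin that hands misfolded glycoproteins to it, lay at 125, 132 and 122 against 129, 131 and 130 TPM and overlapped as well.

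Calr, Pdia4 and Sdf2l1 had smaller log2 fold changes than Hspa5, but differences between genes were not tested. The 95% intervals of Pdia4 (-0.066 to 0.39) and Sdf2l1 (-0.025 to 0.33) held the Hspa5 value of 0.31. That of Calr (-0.094 to 0.26) overlapped the Hspa5 interval (0.17 to 0.46). Calr, the most abundant member, lay at 1780, 1744 and 1711 TPM after myCAF and at 1620, 1712 and 1610 TPM after qPSC co-culture, a log2 fold change of 0.083 ± 0.079 (SE). The groups overlapped, since the lowest myCAF library lay just under the highest qPSC library. Pdia4, which works with BiP on disulfide bonds, lay at 504, 509 and 515 against 448, 472 and 444 TPM, with no overlap and a log2 fold change of 0.16 ± 0.10 (SE). Sdf2l1, a co-factor of the BiP co-chaperones, lay at 182, 176 and 190 against 167, 158 and 168 TPM, also with no overlap and a log2 fold change of 0.15 ± 0.078 (SE). None of these 3 passed the test with or without iCAF replicate 3 (limma adjusted p from 0.926 to 1, and from 0.0702 to 0.502).

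By role, all 9 chaperones and co-chaperones, all 8 folding enzymes, both lectins and all 3 translocation genes had a positive log2 fold change. The medians were 0.15, 0.14, 0.079 and 0.12. Members with an ERSE or ERSE-II in their window were positive in 10 of 10 tested genes, with a median of 0.12, and members whose window held neither were positive in 17 of 19, with a median of 0.14. P4hb, with no match to either spelling in the window printed above, and Hspa5, with 1, had log2 fold changes of 0.32 and 0.31.

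**Figure D3:**
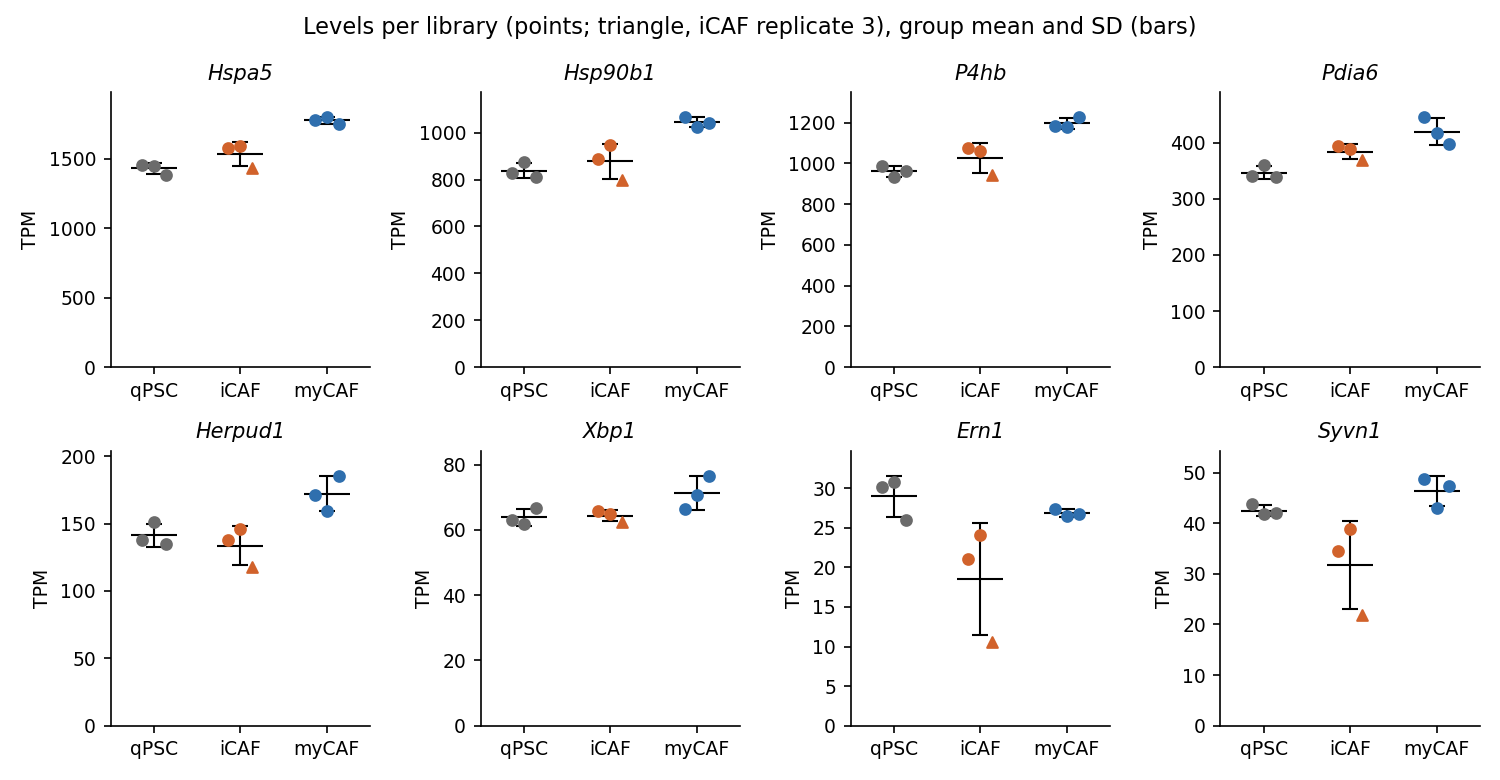
Levels of 8 members in each library (TPM, linear axes from 0), with the group mean and SD as bars and iCAF replicate 3 as a triangle. Hspa5, Hsp90b1, P4hb, Pdia6 and Herpud1 lie higher in each myCAF library than in each qPSC library, while Xbp1, Ern1 and Syvn1 overlap between these groups.

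Fibroblast marker genes had a higher summed level in 2 of the 3 myCAF libraries than in the other 7 libraries. The summed level of 20 fibroblast marker genes was 1128, 675 and 965 TPM in the myCAF, 627, 682 and 742 TPM in the qPSC and 522, 640 and 379 TPM in the iCAF libraries. Of the 16 tested markers 14 had a positive log2 fold change for myCAF against qPSC, with a median of 0.28, and 0 passed the test (3 without iCAF replicate 3, Sparc, Postn and Acta2). Col1a1 lay at 154.6, 68.15 and 157.7 TPM after myCAF and at 53.99, 57.92 and 69.93 TPM after qPSC co-culture. Thy1 lay at 9.043, 3.283 and 8.229 against 2.809, 4.042 and 5.398 TPM. Both genes overlapped between these groups through myCAF replicate 2 alone. Col1a2, Lum and Fap stayed at or near 0 in all groups. All 3 tested epithelial markers lay higher in each myCAF than in each qPSC library, as did 11.3% of all tested genes. None of them passed the test with all 9 libraries. Without iCAF replicate 3, Krt19 was called higher, 2.63-fold (limma adjusted p = 0.0303). In the order of the myCAF sums above, Hspa5 lay at 1781, 1800.5 and 1753 TPM and Pdia6 at 446, 417 and 397 TPM. In the same order Hsp90b1 lay at 1067, 1024 and 1041 TPM and P4hb at 1182, 1179 and 1228 TPM. In the myCAF library with the lowest sum, Hsp90b1 and P4hb were the lowest of the 3, P4hb by little. Hspa5 was the highest there and Pdia6 lay between. Which cells the marker transcripts came from was not tested, nor was the part of fibroblast RNA in the differences of the 4 members.

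The comparison of iCAF with qPSC shares the qPSC libraries with the one above. How many members were positive turned on iCAF replicate 3 and on centring. In each setting given here their share of positive values lay above that of all genes. With all libraries 17 of 34 members were positive and the median log2 fold change was 0.0023, where 22.6% of all genes were positive and their median was -0.15. No member passed the test (limma), while 0.598% of all genes did, all 70 of them lower, and 6 members had an unadjusted p under 0.05. Of these 3 were positive and 3 negative, where the shares over all genes were 1.95% and 13.9%. All 3 iCAF libraries lay above all qPSC libraries in 4 members and below in 3, where the shares over all genes were 4.67% and 23.2%. Leaving out iCAF replicate 3, 30 of 34 were positive with a median of 0.096, against 40.5% and -0.030 over all genes, and 0 members were called where 1.51% of all genes were. After each library was centred on its median, 29 of 34 were positive with a median of 0.20, against 58.4% and 0.047 over all genes. That centring thus moved the median of all genes by more than the size of most member differences here, and the calls over all genes were then 1 higher and 23 lower.

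The 5 members with the smallest p in this comparison were 2 secreted or lumenal helpers on the higher side and 3 genes on the lower side. Manf, a lumenal protein that is also secreted under ER stress, lay at 219, 201 and 209 TPM after iCAF and at 179.9, 183 and 183 TPM after qPSC co-culture. Sdf2l1 lay at 197, 177 and 209.9 TPM after iCAF co-culture, above its qPSC values. Neither gene overlapped between the groups, and the log2 fold changes were 0.21 ± 0.062 for Manf and 0.24 ± 0.078 for Sdf2l1 (SE; limma adjusted p = 0.224 and 0.257). Without iCAF replicate 3 they were 0.21 and 0.18, with limma adjusted p of 0.0716 and 0.162.

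Ern1, which encodes IRE1α, lay at 21.0, 24.1 and 10.6 TPM in the iCAF libraries, all below the qPSC libraries. Syvn1 lay at 34.5, 38.8 and 21.9 TPM and Os9 at 104, 122 and 86.4 TPM, also below their qPSC values. In all 3 genes iCAF replicate 3 was the lowest library of all. The log2 fold changes were -0.69 ± 0.24, -0.45 ± 0.18 and -0.33 ± 0.11 (SE; limma adjusted p from 0.277 to 0.302). Without iCAF replicate 3 they were -0.35 ± 0.084, -0.21 ± 0.070 and -0.21 ± 0.068, with limma adjusted p from 0.0912 to 0.186, and the groups still did not overlap. With each library centred on its median, and all 9 kept, they were -0.49, -0.25 and -0.14, and those of Manf and Sdf2l1 were 0.40 and 0.44.

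The remaining sensors and the chief chaperones did not pass the test for iCAF against qPSC, and several of their values turned on iCAF replicate 3. Hspa5 lay at 1579, 1596 and 1434 TPM and Hsp90b1 at 886, 948 and 797 TPM in the iCAF libraries, where iCAF replicate 3 was the lowest of the 3 in both. Calr lay at 1956, 1695.5 and 1607 TPM, so that the highest and the lowest library of all 9 were both iCAF libraries. Xbp1 varied little, at 65.8, 64.8 and 62.6 TPM, and its 95% interval for iCAF against qPSC ran from -0.17 to 0.19 on the log2 scale. Atf6 lay at 48.3, 52.7 and 28.1 TPM and Eif2ak3 at 11.5, 12.3 and 6.72 TPM, both with iCAF replicate 3 far below the other 2. Pdia4 lay at 509, 476 and 378 TPM and Herpud1 at 137, 146 and 117 TPM. For these members the log2 fold changes lay between -0.28 for Atf6 and 0.10 for Hspa5, with limma adjusted p from 0.381 to 0.942, and those of Pdia4, Eif2ak3 and Herpud1 were negative with iCAF replicate 3 and positive without it. Leaving it out moved the log2 fold change of Hspa5 from 0.10 to 0.15, of Hsp90b1 from 0.062 to 0.13, of Calr from 0.085 to 0.14 and of Atf6 from -0.28 to -0.0089 (limma adjusted p from 0.125 to 0.964). Both remaining iCAF libraries then lay above all qPSC libraries for Hspa5 and Hsp90b1.

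Between the primed groups, the members' share of positive values and their median lay near those of all genes, and their direction turned with centring. The comparison of iCAF with myCAF shares libraries with both others, so it is not separate evidence. In 12 of 34 members all iCAF libraries lay below all myCAF libraries, and in 0 above, where the shares over all genes were 18.3% and 4.55%. With all libraries 6 of 34 were positive and the median log2 fold change was -0.17, against 24.4% and -0.15 over all genes. In the 8 libraries without iCAF replicate 3, 10 of 34 were positive with a median of -0.053, against 41.7% and -0.029 over all genes. With each library centred on its median 20 of 34 were positive, with a median of 0.029 against 0.047 over all genes. No member passed the test, where 0.0598% of all genes did (limma), and without iCAF replicate 3 no member did where 0.599% of all genes did. An unadjusted p under 0.05 was reached by 8 members, all 8 with a negative fold change, where 15.5% of all genes had both.

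The smallest p belonged to Herpud1, with iCAF libraries at 137, 146 and 117 TPM and a log2 fold change of -0.37 ± 0.099 (SE). The iCAF values listed above for Hsp90b1, Hspa5 and Syvn1 gave -0.25 ± 0.075, -0.21 ± 0.064 and -0.57 ± 0.18 against myCAF. P4hb, at 1076, 1063 and 942 TPM in the iCAF libraries, gave -0.22 ± 0.069. With each library centred on its median these differences were smaller, at -0.17 for Herpud1, -0.053 for Hsp90b1, -0.011 for Hspa5, -0.37 for Syvn1 and -0.021 for P4hb. None of these 5 overlapped between the groups in TPM, and the limma adjusted p lay between 0.157 and 0.188. Without iCAF replicate 3 the log2 fold changes were -0.28, -0.19, -0.16, -0.33 and -0.16 in the same order, with limma adjusted p from 0.0747 to 0.106. Hspa5 was thus ordered qPSC, iCAF, myCAF by group mean, at 1431 ± 37.9, 1536 ± 88.8 and 1778 ± 23.8 TPM (SD, n = 3). The qPSC and iCAF libraries overlapped through iCAF replicate 3 alone, since the other 2 iCAF libraries lay above all qPSC libraries.

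**Figure D4:**
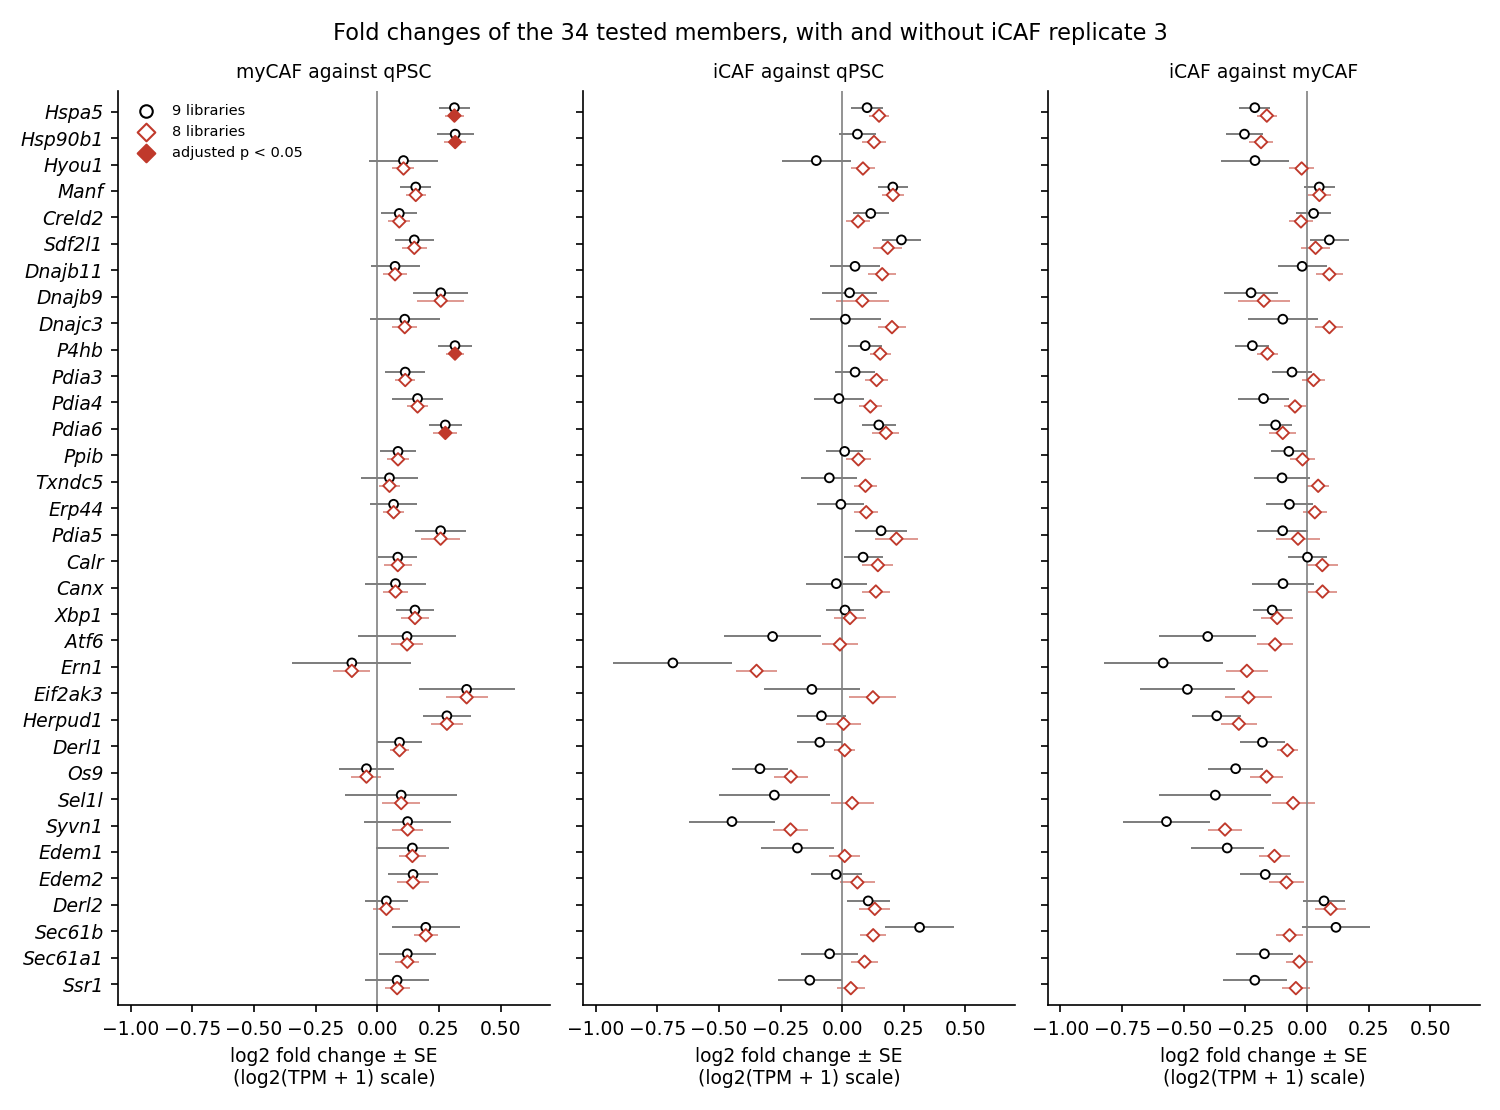
Log2 fold change ± SE of each tested member in the 3 comparisons, on the log2(TPM + 1) scale, from all 9 libraries (circles) and from 8 libraries without iCAF replicate 3 (diamonds). Filled symbols mark an adjusted p under 0.05, reached only by Hspa5, Hsp90b1, P4hb and Pdia6 for myCAF against qPSC without that library.

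The deviation of iCAF replicate 3 differed between members in step with gene length. Against the mean of the other iCAF libraries on the log2(TPM + 1) scale, members ranged from -1.02 for Ern1, with 8173 exon bases, to 0.56 for Sec61b, with 1271. The short genes Sdf2l1 and Creld2 lay higher in it than in all other libraries, as did Sec61b, while 24 members lay lower than in all 8 others. Over the 34 members Pearson's r with log2 exon length was -0.78 and Spearman's rho was -0.67, given as a description of 1 library. The median deviation was -0.29 for the members and -0.35 for all tested genes, of which 67.95% were lower in it than in all 8 others. The long sensor genes Ern1, Atf6 and Eif2ak3 were among the 5 members with the lowest values.

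**Figure D5:**
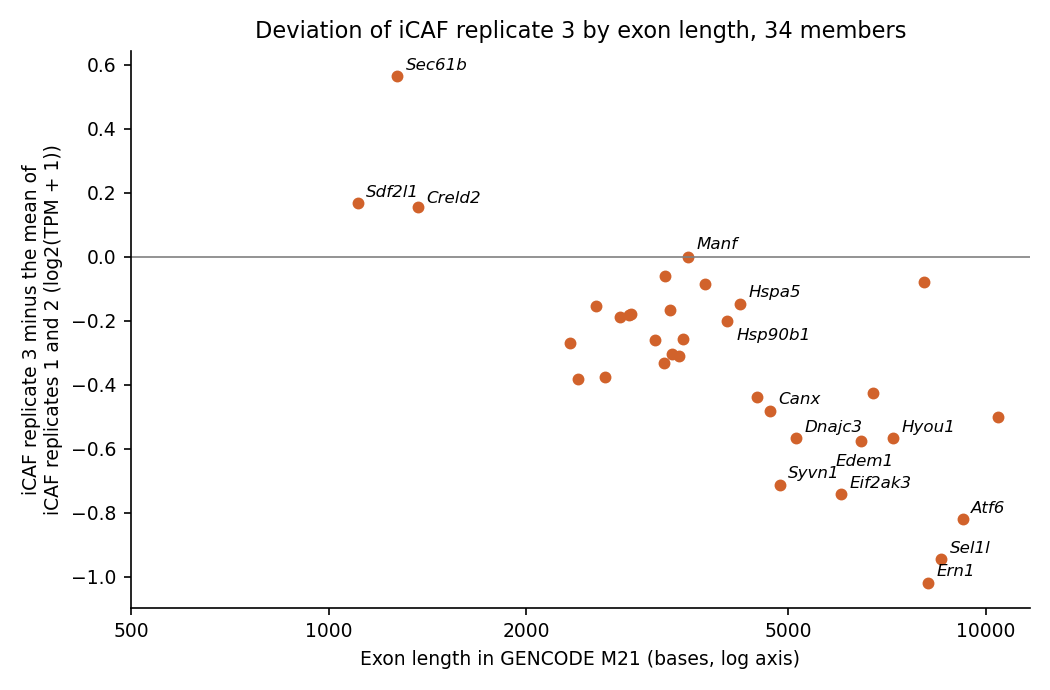
Difference of iCAF replicate 3 from the mean of iCAF replicates 1 and 2 (log2(TPM + 1)) against exon length in GENCODE M21 (bases, log axis) for the 34 tested members. The 3 members above 0 are the 3 shortest, and Ern1, Sel1l, Atf6, Eif2ak3 and Syvn1 lie lowest, between -1.02 and -0.71.

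Genes downstream of PERK and ATF4, the branch that serves amino acid supply and, in long stress, cell death, are listed apart from the members. All 14 tested genes of that list had a negative log2 fold change for iCAF against qPSC, with a median of -0.33, where 22.6% of all genes had a positive one. Chac1, which encodes a glutathione-degrading enzyme induced through ATF4, was the 1 gene that passed. It was lower at 103 ± 7.77 TPM after iCAF and 181 ± 19.6 TPM after qPSC co-culture (SD, n = 3), 1.75-fold, with a log2 fold change of -0.80 ± 0.11 and a limma adjusted p of 0.0146. No gene of the whole table passed this comparison when any 1 of the qPSC libraries was left out. Over 22 alternatives the log2 fold change lay between -0.86 and -0.61, the limma adjusted p lay between 0.00916 and 0.171, and 14 kept the call. Besides the qPSC libraries, it was lost without iCAF replicate 1, with centring, with no filter, with the replicate block and with limma-voom. It held without iCAF replicate 3, alone (limma adjusted p = 0.0103) or with centring (limma adjusted p = 0.025). Without that library Cebpb and Sesn2 were also called lower, by 1.62- and 1.39-fold, and with centring added by 1.555- and 1.34-fold. For myCAF against qPSC 8 of the 14 were positive with a median of 0.070 and 0 passed. Asns, which encodes asparagine synthetase, was called higher, 1.297-fold, and Cebpb lower, 1.40-fold, without iCAF replicate 3. With centring added, Cebpb kept its call and Asns lost it. For iCAF against myCAF all 14 were negative with a median of -0.39 and 0 passed. Without iCAF replicate 3, Trib3, Chac1 and Vldlr were called lower by 1.58-, 1.52- and 1.45-fold, and with centring added they lost the call. With each library centred on its median the list was negative in 11 of 14 genes for iCAF against qPSC and in 12 of 14 for iCAF against myCAF.

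Calls in neighbouring parts of the secretory pathway turned on the libraries in the fit. In the fit of all 9 libraries, 0 genes of the lists for other ER oxidoreductases, other ER-associated degradation, other translocation, N-glycosylation, ER to Golgi transport, collagen folding, further regulators of the response and the cytosolic heat shock response passed in the 3 comparisons. The first 5 lists held 14, 24, 25, 19 and 22 tested genes in that fit. With iCAF replicate 3 left out, 1.04% of all genes were called higher for myCAF against qPSC. Among the called were 5 genes of these lists, 1 from each. They were Ero1l, the oxidase that recharges protein disulfide isomerase, at 291 ± 59.4 and 145 ± 21.2 TPM (SD, n = 3), Selenok, a selenoprotein of the degradation machinery, Sec61g, a subunit of the translocation channel, Magt1, a subunit of the oligosaccharyltransferase, and Kdelr3, a receptor that returns lumenal chaperones from the Golgi. Ero1l differed by 1.98-fold, Kdelr3 by 1.32-fold and the other 3 by 1.15- to 1.21-fold (limma adjusted p from 0.0258 to 0.0474). With centring added, Magt1 lost its call, the others kept theirs, and Ssr3 and Spcs3 of the translocation list were called too. Bcl2l11, which encodes the cell death protein BIM and was counted among the regulators, was lower after iCAF than after qPSC and myCAF co-culture by 1.31- and 1.37-fold without iCAF replicate 3. With centring added, Bcl2l11 kept the call against myCAF (1.32-fold) and lost it against qPSC. For myCAF against qPSC the lists for other translocation and for ER to Golgi transport were positive in 24 of 25 and 19 of 22 tested genes, with medians of 0.052 and 0.069. The cytosolic heat shock list was positive in 9 of 15 with a median of 0.026, and the list for other ER-associated degradation in 9 of 24 with a median of -0.0046. The lists for other ER oxidoreductases and for collagen folding were positive in 13 of 14 and 12 of 15, with medians of 0.12 and 0.11, where the 34 members had a median of 0.12 and all genes 0.0058.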

How the data were processed

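In the file the authors deposited, the levels of 41457 genes, named by symbol, are TPM values with a sum of 1000000 per library, and 2 further columns of the authors' own differences and signed fold scores were not used. The submitters' processing notes name Salmon, DESeq2 and R (version 4.0.1) without their steps. The build is not given in the sources used here. Genes reaching 1 TPM in 3 or more libraries (11704) were analysed here as log2(TPM + 1) by limma (version 3.58.1, run in R 4.3.3, trend option on). All 9 libraries entered 1 fit by group, and p-values were Benjamini-Hochberg adjusted over all genes tested (threshold 0.05). Errors of fold changes are standard errors. TPM depends on the composition of the whole library, and the log scale with a pseudocount understates changes of low genes. Among genes under 200 reads, TPM times exon length (GENCODE M21, on which 98.9% of symbols matched) gave whole read numbers, within 0.05 reads, in 97.8% to 98.1% of cases. These implied reads were used for depth and for limma-voom. No replicates agreed within sampling noise (chi-square per degree of freedom at least 8.06). Groups and replicate numbers came from the sample titles. Same-numbered libraries did not deviate together (r from -0.35 to 0.25 over 9 pairs), so no pairing was used. The members, the gene lists and the rule for named genes (the members by role, a fixed set of them, and the 5 smallest p-values per comparison) were chosen with earlier results of these data known. Promoter windows are from RefSeq tables on GRCm38.p6. Tables and figures were made with Python 3.11.15, pandas 2.3.3 and matplotlib 3.10.9, and the fit was tested on simulated data. Every simulated library had the same spread, so that test cannot show how the fit behaves with a library such as iCAF replicate 3.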

Additional observations from a re-analysis of the deposited data

How the results depend on the processing

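The count of members called for myCAF against qPSC was 0 with all libraries, 4 in a fit of the 6 libraries compared, and 6 without iCAF replicate 3 with centring on the library median or with limma-voom on the implied reads, which added Eif2ak3 and Herpud1 (both voom fits were chosen after seeing the data). Leaving out 1 library at a time gave 0 to 4, where the 4 came without iCAF replicate 3. The count was 0 in the other alternatives for this comparison and in all alternatives for the other 2, and the replicate block called 0 members in each comparison. Over the whole table, leaving out 1 library moved the calls from 70 to between 0 and 194 for iCAF against qPSC, from 0 to between 0 and 331 for myCAF against qPSC and from 7 to between 0 and 281 for iCAF against myCAF. With the replicate block they were 22, 0 and 0, with centring 24, 0 and 0, with quantile normalization 39, 7 and 1, with no filter 5, 1 and 1, with limma-voom 45, 5 and 0, and with the 6 libraries compared 37, 382 and 0.

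Log2 fold changes that changed sign had not passed the test. For iCAF against qPSC, Pdia4 (-0.013) was 0.19 with centring, 0.074 with limma-voom and, without iCAF replicate 3, 0.17 with centring and 0.13 with limma-voom; leaving out 1 library gave -0.10 to 0.11. Eif2ak3 (-0.12) was 0.075 with centring, 0.11 with quantile normalization and, without iCAF replicate 3, 0.18 with centring and 0.15 with limma-voom; leaving out 1 library gave -0.27 to 0.12. Herpud1 (-0.084) was 0.11, 0.0030, 0.063 and 0.022 under the settings given for Pdia4, and -0.15 to 0.0056 with 1 library left out. Atf6 (-0.28) was 0.048 and 0.0067 without iCAF replicate 3 with centring and with limma-voom. Xbp1 (0.011) ranged from -0.013 to 0.044 with 1 library left out. For iCAF against myCAF, Calr (0.0015) was -0.041 with quantile normalization and -0.080 to 0.062 with 1 library left out, Pdia4 (-0.18) was 0.024 with centring and 0.0092 with centring and without iCAF replicate 3, and Xbp1 (-0.14) was 0.059 with centring. The cause was not tested. A table of TPM cannot show isoforms such as spliced Xbp1.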
